A study of Mus musculus with 2 samples.

Results

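Heat shock proteins and chaperonins are the protein-folding machines of the cell, and their transcripts were compared here between 2 libraries of mouse neutrophils. The members were all features of the deposited expression tables named as J proteins (Dnaja, Dnajb and Dnajc), as Hspa, Hspb, Hspd1, Hspe1, Hsph1 or Hsp90 genes, or as subunits Cct2 to Cct8 of the cytosolic chaperonin. This rule found 84 of the 35522 features listed, and 59 of the 84 had at least 0.25 RPKM in both libraries, a unit that scales reads to gene length and library size. Only these 59 are compared below, beside the 9698 genes of the whole tables that passed the same filter. The other 25 are accounted for at the end.

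The neutrophils were sorted from Balb/C bone marrow (mice of 5 to 8 weeks, per the study's methods) as CD11b-positive cells with high Ly6G and low or no Ly6C. Both cultures contained the myeloid growth factor GM-CSF at 10 ng/ml. The PBS culture received PBS for 3 days, and the exosome culture received 20 μg/ml tumor exosomes for 3 days, which are vesicles from CT26 colon carcinoma cells grown as stem-like spheres. There was 1 library per treatment, and no vesicles of another source served as control. With 1 library each, no difference below could be set against a spread between cultures, and no test between treatments was possible. Whether animals were pooled is not given in the sources used here.

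Chaperones bind unfolded stretches of other proteins and release them in cycles driven by ATP. HSP70 proteins (Hspa genes) carry out the most general of these cycles, J proteins deliver clients to them and set off their ATP hydrolysis, and nucleotide exchange factors such as the HSP110 class reset them. HSP90 acts later on kinases and receptors, and chaperonins enclose whole proteins in a barrel. Separate sets serve the cytosol, the endoplasmic reticulum (ER) and the mitochondria. Heat and other protein-damaging stress raise some of the cytosolic genes through the factor HSF1, and unfolded protein in the ER raises its own set, led by Hspa5. Neutrophils are short-lived secretory cells whose granule proteins are made in the ER at earlier stages of maturation.

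The PBS library had an estimated 66.0 M mapped reads and the exosome library 79.1 M, so that an RPKM of 0.25 stood for about 16.5 and 19.8 reads per kilobase. All 12 neutrophil marker genes passed the filter in both libraries. Their summed RPKM was 84902 in PBS and 30855 with exosomes, and 10 of the 12 fell at least 2-fold, including Ly6g, Camp and Retnlg. Of 12 macrophage or monocyte markers, 6 rose at least 2-fold and none fell, and their summed RPKM was 194 in PBS and 647 with exosomes, led by Apoe, Csf1r and Adgre1 (listed as Emr1). None of these 12 was at 0 in either library. The summed RPKM of 5 B cell markers was 108 and 66.9, and that of 5 T cell markers 57.8 and 7.31, nearly all of it Cd3d. Dendritic, erythroid, and eosinophil, basophil or mast cell markers had lower sums than these in PBS. Of 5 epithelial markers, listed with the carcinoma cells in mind, none passed the filter. Krt8 was listed at 0 in both libraries and Krt19 at 0 in PBS. Whether CT26 cells express these markers is not shown by these data. Marker levels thus moved with the treatment, and their part in the differences below was not tested. In such bulk samples, fewer cells of a type and less RNA per cell cannot be told apart.

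The first question was whether folding genes moved as a body. Transcripts of 27 of the 59 members (45.8%) rose at least 2-fold with exosomes, against 31.5% of all genes kept, and 1 member (1.69%) fell at least 2-fold, against 5.62%. The median log2 ratio of exosome over PBS RPKM was 0.84 for the members and 0.53 for all genes kept. The whole tables were shifted upwards, so the members lay 0.31 above the shift on the log2 scale. A ratio of at least 4 was reached by 6 members (Cct3, Dnaja3, Hsph1, Dnajc19, Dnajc24 and Dnajc15) of 59, against 8.52% of all genes kept. When the shift was removed within each of 10 equal bins of expression level, 15 members stayed up and 3 were down (Dnajc28, Dnajb4 and Hspa13), in place of 27 and 1, and all genes kept split into 1290 up and 1304 down. Of the 27 members up, 13 passed 2-fold under each of 4 scalings. These were Cct2, Cct3, both Cct6a features, Dnaja3, Dnajc2, Dnajc15, Dnajc19, Dnajc24, Hsp90aa1, Hspa1b, Hspd1 and Hsph1. The same count was not made over all genes, so these 13 have no background share beside them.

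The compartments differed in their counts. Of 9 members that work in mitochondria, 7 (77.8%) rose and 1 fell. Of 33 members of the cytosol or nucleus, 13 (39.4%) rose and none fell, and of 12 ER members 4 (33.3%) rose and none fell, a share close to that of all genes kept. The median log2 ratios were 1.55 for mitochondria, 0.81 for cytosol or nucleus and 0.48 for the ER. The ER median changed sign, to -0.04 and -0.06, when the median of all genes or a trimmed mean of the log ratios was subtracted. Among 5 members placed elsewhere or nowhere, 3 rose, with a median of 1.06.

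**Figure D1:**
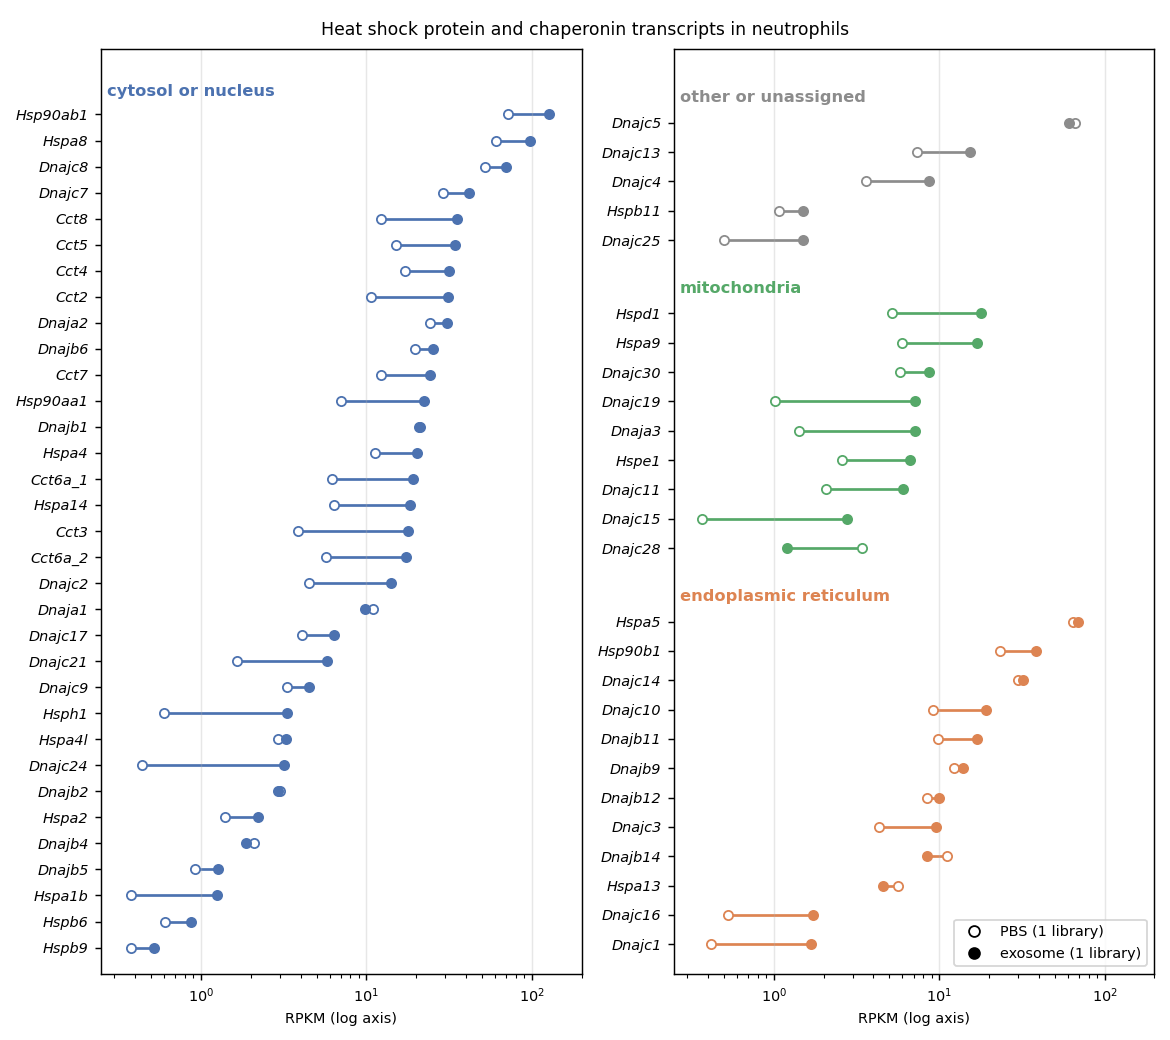
RPKM (log axis) of the 59 members with at least 0.25 RPKM in both libraries, 1 row per gene, grouped by compartment and ordered by the exosome value; open circles are the PBS library, filled circles the exosome library, and the line joins them. The widest gap is that of Dnajc15, from 0.37 to 2.77 RPKM, and Dnajc28 is the row whose filled circle lies furthest to the left of its open circle.

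Levels were compared first among the abundant members. Hsp90ab1, the constitutive cytosolic HSP90, was the highest member in both libraries, at 72.1 RPKM in PBS and 127 RPKM with exosomes. Hspa8, the constitutive cytosolic HSP70, had rank 4 in PBS at 60.8 RPKM and rank 2 with exosomes at 98.0 RPKM. Neither of these housekeeping chaperones reached 2-fold, with log2 ratios of 0.81 (95% counting interval 0.78 to 0.85) and 0.69 (0.66 to 0.72). Counting intervals cover the sampling of reads alone. Dnajc5, a J protein of secretory vesicles, had rank 2 in PBS at 65.9 RPKM and rank 5 with exosomes at 61.3 RPKM. The 59 members together held 0.198% of the summed RPKM in PBS and 0.327% with exosomes.

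Some stress-inducible cytosolic genes, Hsp90aa1, Hsph1 and Hspa1b, lay well below Hsp90ab1 and Hspa8 and had larger ratios, while others did not. Hsp90aa1, the inducible HSP90 (chromosome 12, 110691036 to 110696395, GRCm38), rose from 7.05 to 22.4 RPKM, a log2 ratio of 1.67 (1.59 to 1.75). Hsph1, an HSP110-class exchange factor (chromosome 5, 149616843 to 149636498), rose from 0.60 to 3.33 RPKM, a ratio of 5.55 and a log2 ratio of 2.47 (2.25 to 2.70). Hspa1b, an inducible HSP70, rose from 0.38 to 1.25 RPKM, a log2 ratio of 1.72 (1.34 to 2.12). Its near-identical neighbour Hspa1a had 0.10 RPKM in PBS and 0.36 with exosomes and was not kept. How reads shared by this pair were assigned is not given in the sources used here, so the division between them is uncertain. These inducible HSP70 genes stayed low in both libraries: Hspa8 was 160 times as abundant as Hspa1b in PBS and 78.4 times with exosomes.

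Other heat-inducible genes did not move in that way. Dnajb1, the classical J partner of inducible HSP70, had 21.2 RPKM in PBS and 20.8 with exosomes, a log2 ratio of -0.03 (-0.09 to 0.03), so no difference in RPKM was detectable at this depth; relative to the median of all genes it lay at -0.55. Dnaja1, a cytosolic J protein, had 10.9 and 9.82 RPKM (log2 ratio -0.15, interval -0.22 to -0.09). Dnajb4 had 2.10 and 1.86 RPKM. The HSP110-class genes were unequal as well: beside Hsph1, Hspa4 had 11.3 and 20.1 RPKM (log2 ratio 0.84) and Hspa4l had 2.93 and 3.27 RPKM (log2 ratio 0.16). Median centring turned the sign of Hspa4l, and rescaling to TPM, which gives both libraries the same total, that of Dnajb1.

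A pair that works on the ribosome moved alike. Hspa14 and Dnajc2 encode the HSP70 and the J protein of the ribosome-associated complex, which meets new chains as they leave the ribosome. Hspa14 rose from 6.38 to 18.4 RPKM (log2 ratio 1.53) and Dnajc2 from 4.52 to 14.04 RPKM (log2 ratio 1.64). In GENCODE, 17.9% of the exon bases of Hspa14 are shared with an overlapping gene on the same strand, Gm45902. Dnajc21, a J protein of ribosome assembly, rose from 1.66 to 5.81 RPKM (log2 ratio 1.81). Dnajc24, which takes part in the diphthamide modification of elongation factor 2, rose from 0.44 to 3.17 RPKM. Its log2 ratio of 2.85 rests on about 35 reads in PBS, with an interval of 2.33 to 3.39.

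The remaining cytosolic and nuclear J proteins stayed within 2-fold, so that 3 of 14 such genes rose, with a median log2 ratio of 0.43 that became negative when the median of all genes was subtracted (-0.10). Of the 19 cytosolic members that are not J proteins, 10 rose and the median was 1.18. The shares that rose were 21.4% of these J proteins and 52.6% of the 19, against 31.5% of all genes kept. Among the J proteins that did not pass, Dnajc8 and Dnajc17, both tied to splicing, had log2 ratios of 0.41 and 0.64. Dnajc7, which links HSP70 and HSP90, had 29.2 RPKM in PBS and 41.5 with exosomes. Dnajb6, which holds back aggregation, had 19.7 and 25.4 RPKM, and Dnaja2 had 24.2 and 30.8 RPKM. Dnajc9, a histone chaperone, had 3.33 and 4.53 RPKM. Dnajc7, Dnajb6, Dnaja2, Dnajc9 and Dnajc8 changed sign under median centring. The other cytosolic members within 2-fold were Dnajb2 (2.99 and 2.93 RPKM), Dnajb5 (0.92 and 1.26 RPKM) and the HSP70 gene Hspa2, best known from the testis (1.39 and 2.20 RPKM).

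The cytosolic chaperonin TRiC folds actin and tubulin in a barrel built from different subunits, and each of its subunit genes was higher with exosomes under every scaling. Of the 8 Cct features kept, 6 rose at least 2-fold, and Cct4 and Cct7 had ratios of 1.85 and 1.96. Cct3 rose most (chromosome 3, 88297135 to 88321766), from 3.88 to 17.8 RPKM, a ratio of 4.58. Cct2 rose from 10.6 to 31.2 RPKM, Cct5 from 15.1 to 34.2 RPKM and Cct8 from 12.3 to 35.1 RPKM. The tables list Cct6a as a pair of features with ratios of 3.05 and 3.06, which may share reads. In GENCODE, 18.4% of the exon bases of Cct6a are shared with Psph on the opposite strand. With Cct6a counted once, 26 members rose in all. The median log2 ratio of the Cct features was 1.53, and it was 1.01 after median centring and 1.12 after centring by level. Tcp1, the subunit outside the naming rule, rose from 5.38 to 20.8 RPKM.

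Subunit levels were also closer to each other with exosomes. Over the 8 subunits, Tcp1 included and Cct6a taken from its first feature, RPKM ran from 3.88 to 17.1 in PBS and from 17.8 to 35.1 with exosomes. The highest level was 4.41 times the lowest in PBS and 1.97 times with exosomes, and the SD of log2 RPKM over subunits was 0.77 and 0.40. The subunits lowest in PBS, Cct3 and Tcp1, had the largest ratios (4.58 and 3.86), and the highest, Cct4, had the smallest. The PBS level is the denominator of these ratios, so this order is not a finding apart from the narrower spread. These subunits are not replicates, and the narrower spread describes this pair of libraries. The Cct features held 11.7% of the members' summed RPKM in PBS and 18.6% with exosomes.

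**Figure D2:**
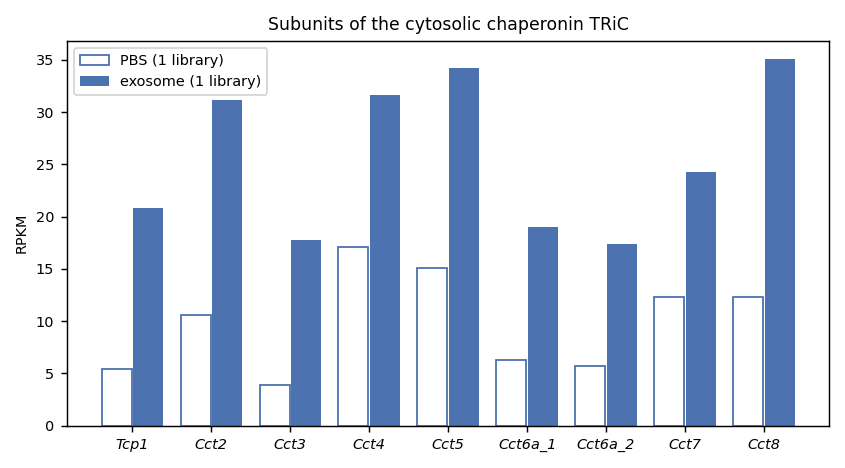
RPKM of the subunit genes of the chaperonin TRiC; open bars are the PBS library, filled bars the exosome library, without error bars because there is 1 library each. Every filled bar is higher than its open bar, and the subunits span 3.88 to 17.1 RPKM in PBS and 17.8 to 35.1 RPKM with exosomes, leaving out the second Cct6a feature.

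Mitochondria have a folding line of their own, in which HSP70 and its J proteins pull proteins through the inner membrane and the HSP60 and HSP10 chaperonin then folds them. Hspd1, which encodes HSP60 (chromosome 1, 55077833 to 55088243), rose from 5.17 to 17.9 RPKM, a log2 ratio of 1.79 (1.69 to 1.91). Hspe1, which encodes its lid HSP10 (chromosome 1, 55088148 to 55091317), rose from 2.57 to 6.65 RPKM, a log2 ratio of 1.37 (1.12 to 1.64). Both genes have many processed pseudogenes, to which reads may have been lost or shared. Hspa9, the mitochondrial HSP70, rose from 5.95 to 17.0 RPKM (log2 ratio 1.51). Dnaja3, its J partner in the matrix, rose from 1.42 to 7.17 RPKM (log2 ratio 2.34).

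The J proteins of the import motor had ratios among the 3 largest of all members, with Dnajc24 between them. Dnajc15 (chromosome 14, 77826217 to 77874917) rose from 0.37 to 2.77 RPKM, a ratio of 7.49 and a log2 ratio of 2.90 (2.66 to 3.16). Dnajc19 (chromosome 3, 34057280 to 34081354), its relative at the same motor, rose from 1.02 to 7.18 RPKM, a ratio of 7.04 and a log2 ratio of 2.82 (2.59 to 3.06). Dnajc11, which belongs to the complexes that shape the cristae, rose from 2.07 to 6.08 RPKM. Dnajc30, of the inner membrane, had 5.76 RPKM in PBS and 8.70 with exosomes (log2 ratio 0.59), and 26.2% of its exon bases are shared with Bud23 on the opposite strand. Dnajc28 (chromosome 16, 91614257 to 91618999), whose function is little known, was the member that fell, from 3.43 to 1.20 RPKM, a log2 ratio of -1.52 (-1.70 to -1.33). After centring by level 4 of the 9 mitochondrial members remained 2-fold up, against 1290 of the 9698 genes kept. The median of these 9 members was then 0.95.

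Hspd1 and Hspe1 lie head to head on opposite strands and share their promoter, so the stretch between their start sites is shown. It lies at chr1:55088053-55088082 (GRCm38.p6, RefSeq promoter table). Its element begins 89 bases before the start site of Hspe1 and 144 bases before one start site of Hspd1, which are 216 bases apart; a further Hspd1 start site in RefSeq lies on the other side, so for that transcript the element comes after the start. Capitals mark a pair of overlapping heat shock elements, here units of TTC and GAA in turn with 2 bases between them, read along the strand of Hspe1.
Hspd1 and Hspe1 promoter: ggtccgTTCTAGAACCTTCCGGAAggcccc

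Both genes that share this stretch rose, Hspd1 by a ratio of 3.47 and Hspe1 by 2.59, but Hspe1 did not reach 2-fold after median centring (log2 0.85) and centring by level (0.46), where Hspd1 did (1.27 and 1.23). Elements of 3 such units were found in the promoter windows (250 bases before to 50 after a start site, both strands) of 4 of 48 members kept that had a window, and in 0.662% of 27025 genes. The other holders were Hsph1, where the match lies after the start site, and Dnajb6, whose ratio was 1.29. The shorter pair GAANNTTC, which the longer element contains, was found in 8 of these 48 members and in 9.04% of genes, and the pair TTCNNGAA in 8 members and in 9.60% of genes. Of the holders of GAANNTTC, Cct2, Hspa1b, Hspd1, Hspe1 and Hsph1 rose, and Dnaja1, Dnajb6 and Hspb6 stayed within 2-fold. Of the holders of TTCNNGAA, Cct5, Cct6a, Dnajc10, Hspd1, Hspe1 and Hsph1 rose, and Dnajb4 and Dnajb6 stayed within 2-fold. Hspd1 and Hspe1 hold these motifs in their shared stretch, and a relation of motif to ratio was not tested. Such a match describes letters and shows no binding. Of 58 gene symbols kept, 10 had no window, namely Cct4, Dnajc2, Dnajc5, Dnajc11, Dnajc30, Hsp90aa1, Hsp90ab1, Hspa8, Hspa9 and Hspa13.

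In the ER, the abundant lumenal chaperones stayed within 2-fold while several J proteins rose. Hspa5, which encodes the ER HSP70 BiP (chromosome 2, 34772090 to 34776529), had 64.4 RPKM in PBS and 69.1 with exosomes, a log2 ratio of 0.10 (0.07 to 0.13) that turned negative under median centring. Hsp90b1, the ER HSP90 known as GRP94, had 23.4 and 38.2 RPKM (log2 ratio 0.71), with 14.7% of its exon bases shared with a transcribed pseudogene on the opposite strand. Hspa13, an ER-associated HSP70 relative, had 5.62 and 4.56 RPKM (log2 ratio -0.30). No ER member outside the J proteins reached 2-fold.

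Of 9 ER J proteins, 4 rose (44.4%, against 31.5% of all genes kept). Dnajc3, which doubles as an inhibitor of eIF2α kinases, rose from 4.34 to 9.58 RPKM (log2 ratio 1.14), and Dnajc10, an ER disulfide reductase, from 9.18 to 19.2 RPKM (log2 ratio 1.06). Dnajc1 and Dnajc16, both of the ER membrane, rose from 0.42 to 1.67 RPKM and from 0.53 to 1.73 RPKM. Dnajc10 and Dnajc3 passed 2-fold by a small margin. After median centring 2 of 12 ER members were up, against 1634 of the 9698 genes kept. Centring by level, or a pseudocount of 1, left 0 ER members up. Dnajb9, a BiP cofactor that is a common readout of ER stress, had 12.3 RPKM in PBS and 13.99 with exosomes (log2 ratio 0.18). Dnajb11, another lumenal cofactor, had 9.81 and 16.9 RPKM (log2 ratio 0.78). The membrane J proteins Dnajb12, Dnajb14 and Dnajc14 had log2 ratios of 0.26, -0.40 and 0.09. The signs of Dnajb9, Dnajb12 and Dnajc14 changed under median centring.

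The ER stress element, the letters CCAAT and CCACG with 9 bases between them, was found before the start sites of 3 of the 48 members, and in 0.137% of genes. The sequences of these 3 promoters are shown because their genes moved unequally. They run along the gene's own strand (GRCm38.p6, RefSeq promoter table), with the element in capitals, and lie at chr2:34772005-34772063 for Hspa5 on the plus strand, chr10:86705618-86705676 and chr10:86705513-86705571 for Hsp90b1 on the minus strand, and chr14:118937807-118937865 for Dnajc3 on the plus strand. The second Hsp90b1 element reads in the opposite direction.
Hspa5: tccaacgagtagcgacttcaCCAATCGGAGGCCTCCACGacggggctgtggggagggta
Hsp90b1, first element: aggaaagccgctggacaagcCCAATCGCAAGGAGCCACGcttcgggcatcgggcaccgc
Hsp90b1, second element: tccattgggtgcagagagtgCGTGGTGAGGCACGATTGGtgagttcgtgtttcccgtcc
Dnajc3: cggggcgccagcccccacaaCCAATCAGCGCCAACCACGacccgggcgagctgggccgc

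Holders of this element had log2 ratios of 0.10 for Hspa5, 0.71 for Hsp90b1 and 1.14 for Dnajc3. The element lay 65 bases before the start site in Hspa5, 105 in Dnajc3 and 107 and 212 in Hsp90b1.

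Of the members placed elsewhere, Dnajc13, a J protein of endosome sorting, rose from 7.34 to 15.3 RPKM (log2 ratio 1.06). Dnajc4 and Dnajc25, not assigned to a compartment, rose from 3.59 to 8.69 RPKM and from 0.50 to 1.51 RPKM. Dnajc5 of secretory vesicles did not share this direction, with a log2 ratio of -0.10. Small heat shock proteins (Hspb genes), which hold unfolded proteins without ATP, were scarce. The 3 kept, Hspb6, Hspb9 and Hspb11 (a protein of cilium transport), lay between 0.38 and 1.51 RPKM with ratios of 1.37 to 1.43. Their median log2 ratio of 0.48 changed sign under median centring, and the interval of Hspb9, with about 18 reads in PBS, included 0 (-0.42 to 1.404).

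By name family, the Cct features had a median log2 ratio of 1.53 (6 of 8 up) and the pair of Hspd1 and Hspe1 one of 1.58, an order that centring by level reversed (1.12 and 0.85). The Dnajc family had a median of 1.14 (13 of 21 up, 1 down), and 4 of its genes were up after centring by level and 7 with a pseudocount of 1. Of the 9698 genes kept, 1290 and 1976 were up under these settings. The Hsp90 genes had a median of 0.81 (1 of 3 up) and the Hspa genes of 0.69 (3 of 9 up). The Dnaja genes had 0.35 (1 of 3 up), a value whose sign changed under median centring (-0.18). The Hsp90, Hspa and Dnaja genes each had 33.3% up, close to the 31.5% of all genes kept. None of 9 Dnajb genes rose or fell, with ratios between 0.76 and 1.72, although Dnajb4 was past 2-fold down after centring by level (-1.26), and their median of 0.18 became -0.35 under median centring. Within families the spread was wide: Dnajc genes had ratios from 0.35 to 7.49.

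**Figure D3:**
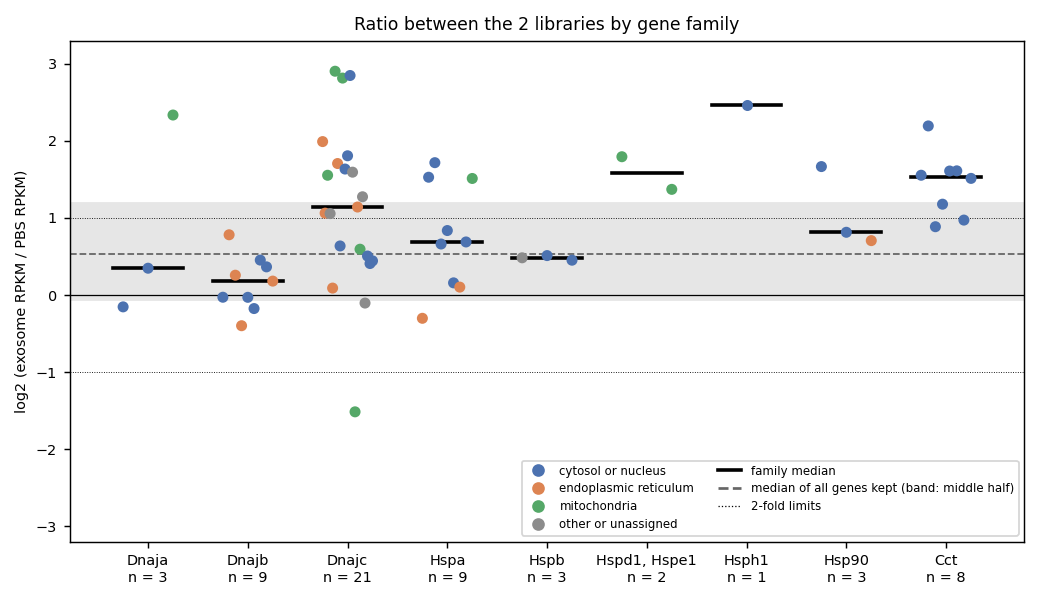
Log2 ratio of exosome over PBS RPKM for each of the 59 members by name family, coloured by compartment; the black bar is the family median, the dashed line the median of all 9698 genes kept (0.53), the grey band their middle range from the first to the third quartile, and dotted lines the 2-fold limits. Cct features sit above the dashed line without exception, and Dnajb genes lie inside the 2-fold limits, where their median of 0.18 turns to -0.35 when the dashed line is taken as 0.

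The ratio depended on the level in the tables as a whole, so the members were also set beside genes of like level. Below a mean of 5 RPKM, 12 of 22 members (54.5%) rose, against 45.2% of 4054 genes. From 5 to 20 RPKM 12 of 22 members rose, against 27.1% of 3163 genes, and the median log2 ratios were 1.06 and 0.52. At 20 RPKM or more 3 of 15 members (20.0%) rose, against 14.8% of 2481 genes. In all, 40 of the 59 members lay above the median of their own bin of level, of 10 bins. All 8 Cct features and 8 of the 9 mitochondrial members were among those 40, and 2 of the 9 Dnajb genes.

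**Figure D4:**
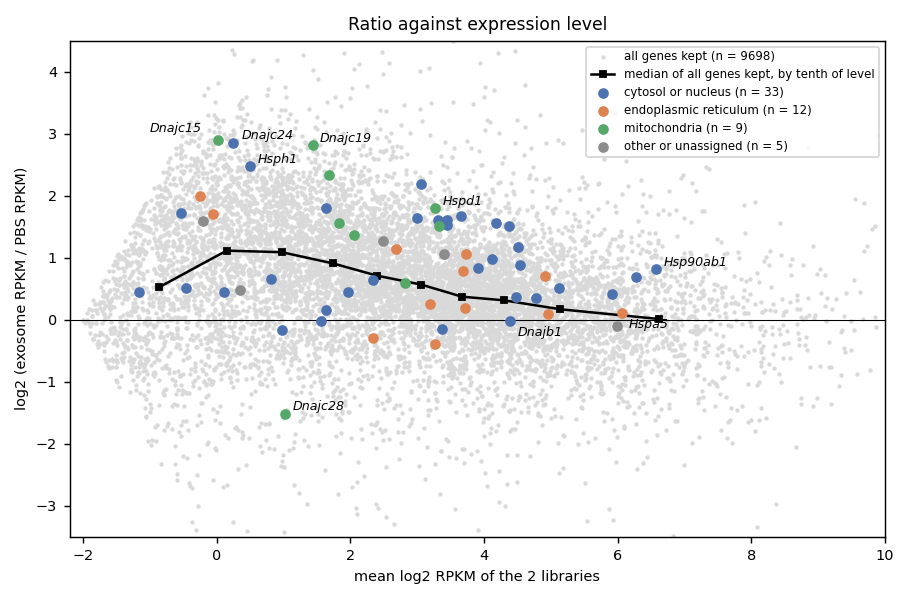
Log2 ratio of exosome over PBS RPKM against the mean log2 RPKM of both libraries; grey points are all genes kept, coloured points the 59 members by compartment, and black squares the median of all genes kept in each of 10 bins of level. The squares sink towards 0 at high levels; Hsp90ab1 lies above them at its level, and Hspa5 near them. The axes leave out 26 genes by ratio and 18 by level, none of them a member.

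Partner genes of these machines were taken from a list of 60, of which 54 were kept, and 29 of these (53.7%) rose and 1 fell, against 31.5% and 5.62% of all genes kept. Their median log2 ratio was 1.02. After median centring 17 of the 54 were up, and 15 after centring by level, settings tried on these genes after seeing the data. All genes kept then had 1634 and 1290 of 9698 up. Of 9 mitochondrial partners 7 rose, with a median of 1.74, and 5 stayed up after median centring. Among them Clpb, which dissolves aggregates, rose from 0.35 to 2.07 RPKM, Trap1, the mitochondrial HSP90, from 1.76 to 7.63 RPKM, and the protease gene Lonp1 from 2.77 to 11.1 RPKM. The others that rose were Hscb, Timm44, Clpp and Grpel2, with ratios from 2.05 for Grpel2 to 3.52 for Hscb. Grpel1, the exchange factor of mitochondrial HSP70, had 6.12 and 10.2 RPKM (log2 ratio 0.74).

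For the heat shock factors, Hsf1 rose from 5.48 to 13.9 RPKM (log2 ratio 1.34, interval 1.25 to 1.44), a call lost under median centring (0.82), and Hsf2 had 0.21 RPKM in PBS and 0.68 with exosomes. Of 6 HSP70 co-chaperones kept 4 rose (66.7%, against 31.5% of all genes kept). They were the exchange factors Hspbp1 (0.61 to 4.42 RPKM) and Bag5 (0.77 to 5.52 RPKM), Bag4, and St13 (20.6 to 50.4 RPKM), which steadies the bound state of HSP70. After median centring 2 of these 6 were up (Bag5 and Hspbp1), and after centring by level 3, with St13 added. Stub1, the ubiquitin ligase of chaperones, had 16.1 and 22.6 RPKM (log2 ratio 0.49), which changed sign under median centring. Bag3, itself heat-inducible, was below the filter at 0.16 RPKM in PBS and 0.44 with exosomes.

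Of 17 HSP90 co-chaperones, 7 (41.2%) rose and 1 fell, against 31.5% and 5.62% of all genes kept. Those that rose were Nudc, Ppp5c, Aarsd1, Chordc1, Fkbp4, Stip1 and Cdc37, with ratios from 2.19 for Cdc37, the kinase adaptor, to 4.81 for Nudc. After median centring 5 of the 17 were up (Aarsd1, Chordc1, Fkbp4, Nudc and Ppp5c). Centring by level left 4 up (Aarsd1, Nudc, Ppp5c and Stip1) and 2 down. Stip1, which hands clients from HSP70 to HSP90, rose from 8.20 to 23.2 RPKM. Fkbp5, a steroid receptor co-chaperone and well-known glucocorticoid-induced gene, fell from 25.8 to 5.51 RPKM, a log2 ratio of -2.23 (-2.30 to -2.15), while its relative Fkbp4 rose from 2.88 to 8.80 RPKM.

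Of 9 TRiC partners kept, 3 rose (33.3%, close to the 31.5% of all genes kept), namely Tcp1 and the prefoldin genes Pfdn1 (0.65 to 4.81 RPKM) and Pfdn4 (1.09 to 8.88 RPKM), whose products pass nascent chains to the chaperonin. Of 11 ER folding genes kept 7 rose, but P4hb and Sdf2l1 alone stayed past 2-fold after median centring, and P4hb alone after centring by level. P4hb, a protein disulfide isomerase, rose from 33.0 to 135 RPKM, Sdf2l1 from 0.63 to 2.68 RPKM, and Hyou1, the ER member of the HSP110 class, from 4.16 to 9.08 RPKM. Manf and Pdia4, both of the ER lumen, had ratios of 2.73 and 2.06, and Pdia6 just reached 2-fold at 10.1 and 20.2 RPKM. Canx rose from 20.7 to 43.8 RPKM and Calr, its soluble relative, had 47.6 and 68.9 RPKM. Sil1, an exchange factor of BiP, was below the filter in PBS, at 0.13 RPKM, and had 0.97 RPKM with exosomes.

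**Figure D5:**
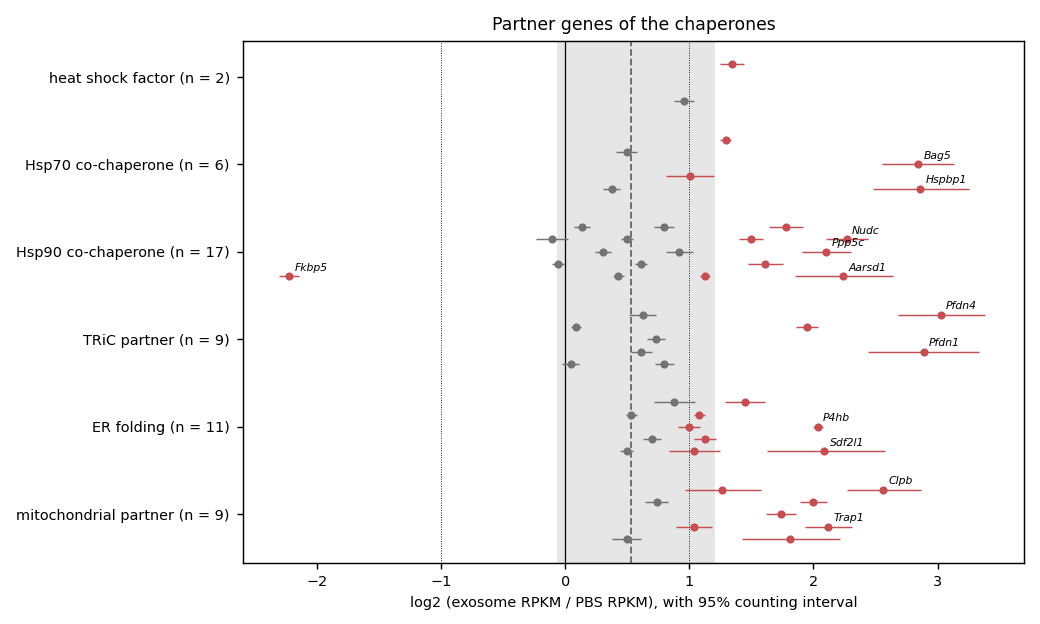
Log2 ratio of exosome over PBS RPKM for the 54 partner genes kept, by class, with 95% counting intervals as bars; red points are past the 2-fold limits (dotted), the dashed line is the median of all genes kept (0.53) and the band their middle range from the first to the third quartile. Mitochondrial partners have a median of 1.74, and Fkbp5 is the point at the far left.

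The 25 members not kept were scarce throughout. Of these, 7 were listed at 0 in both libraries, namely Dnajb3, Dnajb7, Dnajc5b, Dnajc5g, Dnajc22 and the pseudogene features Dnaja1-ps and Hspa9-ps1. A further 13 stayed below 0.25 RPKM in both. They were Cct8l1, Dnaja4, Dnajb8, Dnajb13, Dnajc6, Hspa1l, Hspa12a, Hspa12b, Hspb2, Hspb3, Hspb7, Hspb1, the best-known small heat shock protein, with 0.17 RPKM in PBS and 0.04 with exosomes, and Hspb8, with 0.18 and 0.12 RPKM. Another 5 reached 0.25 RPKM with exosomes alone. These were Cct6b (0.15 and 0.26 RPKM), Dnajc12 (0.17 and 0.39 RPKM), Dnajc18 (0.22 and 0.60 RPKM), Dnajc27 (0.18 and 0.39 RPKM) and Hspa1a. No member reached the limit in PBS alone.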

How the data were processed

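Poly(A) RNA of 1 PBS-treated and 1 exosome-treated neutrophil culture was sequenced (TruSeq mRNA kit, Illumina HiSeq). The authors trimmed reads below a Phred score of 20, analysed them in CLC Genomics Workbench v8.0 on mm10 and deposited 1 RPKM value per feature. The annotation, the treatment of multiply matching reads and whether strand was used are not given in the sources used here. In GENCODE, 8 genes among the members kept share at least 10% of their exon bases with another gene. They are Cct6a, Dnaja1, Dnajc7, Dnajc14, Dnajc17, Dnajc30, Hsp90b1 and Hspa14.

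Commas inside 44 large RPKM values of the deposited tables were removed. Genes with at least 0.25 RPKM in both libraries were kept, and a member was called up or down at a 2-fold ratio of RPKM, without a pseudocount. With 1 library per treatment no test was run. Depth was taken as the commonest total for which RPKM below 0.01 stand for 1 read, with the longest GENCODE M21 transcript of a symbol as length: 225 of 923 such features gave the PBS total and 270 of 1068 the exosome total. The ratio of these depths was 1.20, and 1.20 also without lengths. Counting intervals are exact Clopper-Pearson intervals at 95% of reads estimated from RPKM, length and depth. The length behind each deposited RPKM is not known. Where it differs from the length used here, the estimated reads and the width of the interval are off. Whether PCR copies were removed is not given in the sources used here, and the intervals cover counting error only.

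Members came from a fixed pattern of gene names. Compartments, partner genes and marker genes were listed by hand, and 59 of 60 partner genes were found in the tables. Members could all be named, as could partner genes past 2-fold or listed in the rule for named genes (Hsf1, Hsf2, Tcp1, Hyou1, Sil1, Trap1, Stub1, Hspbp1, Bag3, Stip1, Grpel1, Canx and Calr). Protein sequences were not used here. Members and lists were chosen with earlier results of these data known. Gene positions and promoters are from RefSeq (GRCm38.p6), the build that mm10 names. Alternatives were median centring, removal of a trimmed mean (30% of the ratios and 5% of the levels left out at each end), TPM rescaling, centring within 10 bins of level, a 4-fold call, a minimum of 1 RPKM, a pseudocount of 1 without other change, and a minimum of 0.25 RPKM in either library with 0.25 added to each value. The scripts were tested on simulated data (Python 3.11.15, pandas 2.3.3, scipy 1.17.1).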

Additional observations from a re-analysis of the deposited data

How the results depend on the processing

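The 2 libraries have no replicates, and no paired analysis was possible because each treatment has 1 library and the labels carry no replicate numbers. The median log2 ratio of all genes kept lay at 0.53, which centring removes. Median centring gave median log2 ratios of 0.31 for the members, 0.29 for cytosol or nucleus, -0.044 for the ER, 1.03 for mitochondria, 0.53 for the other members, -0.35 for Dnajb, 0.62 for Dnajc, 0.16 for Hspa and 1.01 for Cct. Removal of a trimmed mean gave, in the same order, 0.30, 0.27, -0.059, 1.01, 0.52, -0.36, 0.60, 0.15 and 0.99. Centring by level gave 0.48, 0.58, 0.25, 0.95, 0.48, -0.34, 0.57, 0.47 and 1.12, with 15 members up and 3 down. The members up numbered 19 of 59 under median centring, 18 under the trimmed mean and 28 under TPM rescaling. Of the 9698 genes kept, 1634, 1594 and 3203 were up under these settings, and 1290 under centring by level. At a ratio of at least 4, 6 members were up and 0 down, against 8.52% of all genes kept that were up.

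Among partner genes, 17 and 15 of 54 were up under median centring and centring by level, in place of 29. A minimum of 1 RPKM moved the ER median to 0.22, that of the other members to 0.77, Dnajb to 0.076 and Dnajc to 0.85, and fewer members were tested (49, of which 20 up). A minimum of 0.25 RPKM in either library moved cytosol or nucleus to 0.69 and the ER to 0.70. A pseudocount of 1, which shrinks ratios of low genes, moved cytosol or nucleus to 0.71, the other members to 0.74, Dnajc to 0.91 and Cct to 1.45. Counting Cct6a once, chosen after seeing the data, left 26 members up. Signs of single members changed for 14 under median centring, 14 under the trimmed mean, 11 under centring by level and 2 under TPM rescaling, none of them a member past 2-fold. Of the members kept, Dnajc24, Hspa1b, Hspb6 and Hspb9 rested on fewer than 100 reads in PBS.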

Other observations

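Ratios of levels within a library are not changed by a common factor between libraries, though centring by level does change them, and several differed between the libraries. Hsp90ab1 stood at 10.2 times the RPKM of its inducible relative Hsp90aa1 in PBS and at 5.66 times with exosomes. The ER HSP70 gene Hspa5 stood at 10.8 times its mitochondrial counterpart Hspa9 in PBS and at 4.07 times with exosomes, and at 15.5 and 7.61 times its exchange factor gene Hyou1. Hspa8 stood at 2.87 times its J partner Dnajb1 in PBS and at 4.72 times with exosomes, the opposite direction. HSP60 (Hspd1) stood at 2.01 times its lid gene Hspe1 in PBS and at 2.70 times with exosomes. ER members held 25.3% of the members' summed RPKM in PBS and 19.9% with exosomes, and mitochondrial members 3.91% and 6.59%. Centring by level changed the log2 shift of Hsp90ab1 over Hsp90aa1 from -0.85 to -0.49, of Hspa5 over Hspa9 from -1.41 to -0.85 and of Hspa5 over Hyou1 from -1.02 to -0.32. It changed that of Hspa8 over Dnajb1 from 0.72 to 1.02 and that of Hspd1 over Hspe1 from 0.42 to 0.77. These pairs were chosen after their values were seen, and with 1 library per treatment none of these shifts was tested.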
